A study of Mus musculus with 8 samples.

Results

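The tumour necrosis factor (TNF) ligand, TNF receptor and TRAF families were examined in the dorsal lateral geniculate nucleus (dLGN) of the mouse, the thalamic nucleus that relays retinal input to the cortex. Members were taken by symbol: every listed gene whose symbol starts with Tnfrsf or Tnfsf, or is Traf followed by a single digit, plus Tnf, Lta, Ltb, Ltbr, Cd40, Fas, Fasl and Eda2r. This gave 46 of 23116 genes, and Relt was not analysed here. Total RNA was sequenced after removal of ribosomal RNA from 4 mice labelled Fn14 KO and 4 labelled Fn14 WT, all C57BL/6J mice in standard housing, labelled as 27 days old, with each mouse as 1 library (KO 1 to KO 4 and WT 1 to WT 4). Fn14 is the receptor for the cytokine TWEAK and is encoded by Tnfrsf12a, and the comparison asks which transcripts differ when it is absent. The sources used here do not give the part of Tnfrsf12a removed in the KO allele, whether it is absent from all cells, or the sex and litter of each mouse, though the design text states littermates of either sex. Values are TPM (transcript abundance scaled for gene length and library total). The depth behind them is unknown, so a value of 0 is described as listed at 0 and no counting interval is given.

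TNF family ligands are mostly membrane-bound or shed trimers that cluster their receptors. Receptors with a death domain recruit adaptors that can start apoptosis or necroptosis, while the others, Fn14 among them, bind TNF receptor-associated factors (TRAFs), adaptor and ubiquitin ligase proteins that lead to NF-kB and MAP kinase signalling. Decoy receptors bind ligand without signalling. In the brain these proteins are known from glial inflammation, neuronal survival, axon pruning and, for TWEAK and Fn14, from the refinement of synapses between retina and thalamus.

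The members' levels covered a wide range, and the most abundant were receptors and TRAFs. Other receptors and TRAFs were low, among them Tnfrsf9 at a mean of 1.18 TPM and Traf5 at 1.36 TPM. The ligand Tnfsf10, at 17.5 TPM, lay above these. Of 15 ligand genes 5 reached a mean of 1 TPM over the 8 libraries. Of 15 TRAF-binding receptor genes 12 did so, as did all 5 death-domain receptor genes, the 4 decoy or other receptor genes and the 7 TRAF genes. Those 33 members were tested, and 13 members of low level were only described. Tnfrsf10b, the mouse receptor for the death ligand TRAIL, had the highest mean at 140.9 TPM. Tnfrsf21, the death-domain receptor DR6, followed at 97.8 TPM, then Traf7 at 82.3 TPM and Tnfrsf19, the receptor TROY, at 48.5 TPM. Just above the 1 TPM limit stood Eda2r at a mean of 1.15 TPM, and just below it Fasl at 0.799 TPM.

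**Figure D1:**
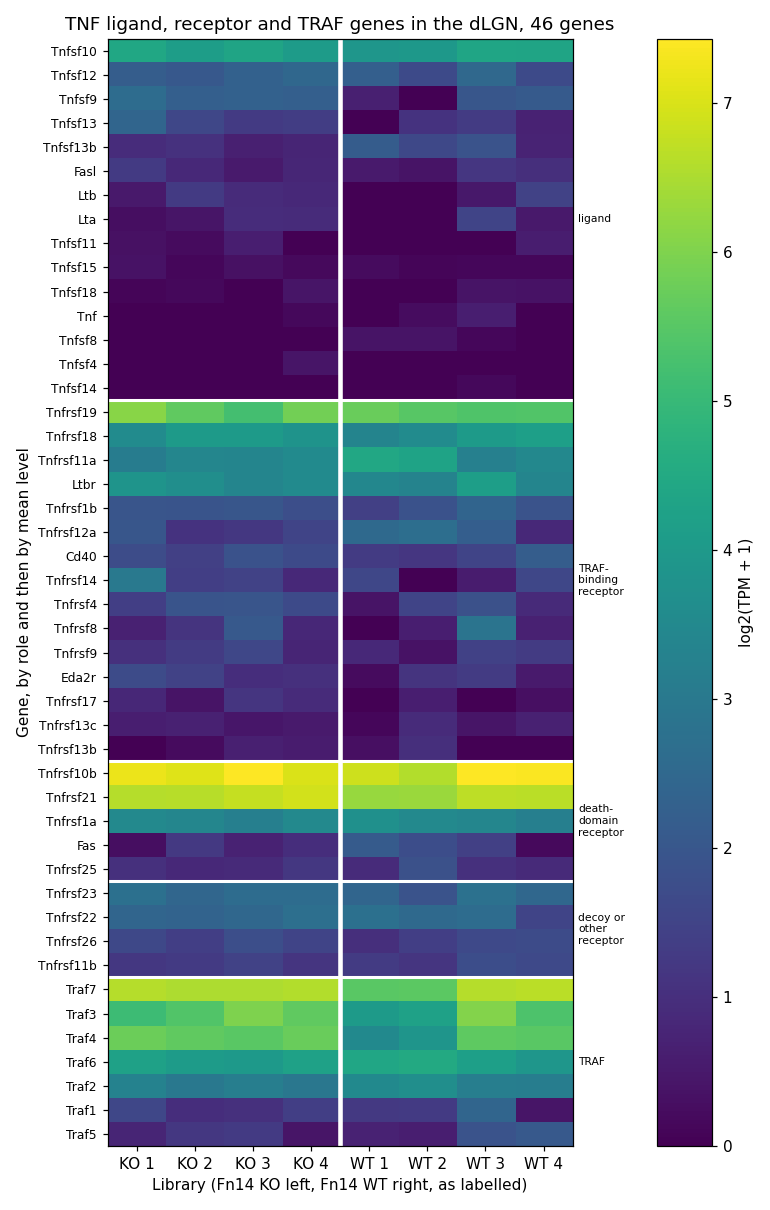
Level of each of the 46 genes (rows, by role and then by mean level) in each library (columns, Fn14 KO on the left, Fn14 WT on the right), as log2(TPM + 1). The brightest rows are Tnfrsf10b, Tnfrsf21 and Traf7, the lower ligand rows are near 0, and Traf7, Traf3 and Traf4 are darker in WT 1 and WT 2 than in the other 6 libraries.

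Promoter sequence is shown for the targeted gene and for 3 members, picked after their values were seen, whose levels in WT 1 and WT 2 lay outside those of the other 6 libraries under each scaling tried (Traf4 and Traf7 below, Tnfrsf11a above). Each stretch runs from 250 to 51 bases before the RefSeq start of the gene on GRCm38.p6, written 5′ to 3′ on the strand of the gene. Capitals mark the GC box GGGCGG and the CCAAT box, searched on both strands, and the kappa-B consensus bound by NF-kB, of which these 4 stretches hold no match.
Tnfrsf12a (chr17:23677500-23677699, minus strand): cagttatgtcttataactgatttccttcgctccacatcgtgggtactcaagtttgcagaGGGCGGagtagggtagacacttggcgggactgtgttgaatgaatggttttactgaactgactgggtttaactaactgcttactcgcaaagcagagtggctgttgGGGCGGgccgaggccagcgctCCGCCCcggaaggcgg
Traf4 (chr11:78165601-78165800, minus strand): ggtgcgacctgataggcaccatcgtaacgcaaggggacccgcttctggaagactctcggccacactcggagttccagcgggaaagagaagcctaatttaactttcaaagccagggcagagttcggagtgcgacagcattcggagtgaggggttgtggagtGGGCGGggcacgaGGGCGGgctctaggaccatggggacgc
Traf7 (chr17:24527989-24528188, minus strand): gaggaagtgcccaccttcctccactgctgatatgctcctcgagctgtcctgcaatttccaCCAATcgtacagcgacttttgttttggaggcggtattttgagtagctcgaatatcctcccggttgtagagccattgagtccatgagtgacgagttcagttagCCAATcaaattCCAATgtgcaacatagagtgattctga
Tnfrsf11a (chr1:105780473-105780672, plus strand): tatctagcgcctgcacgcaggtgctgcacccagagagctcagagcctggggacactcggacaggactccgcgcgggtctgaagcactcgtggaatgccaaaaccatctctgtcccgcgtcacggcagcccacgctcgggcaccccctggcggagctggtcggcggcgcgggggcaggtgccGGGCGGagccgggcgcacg

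The stretch of Tnfrsf12a held 3 GC boxes, that of Traf4 held 2 and that of Tnfrsf11a held 1, while Traf7 held 3 CCAAT boxes and no GC box. RefSeq promoters were matched for 38 of the 46 members. In the same 200-base window a GC box was found in 11 of these 38 (28.9%), against 24.6% of 32851 promoters, a CCAAT box in 6 (15.8%), against 28.4%, and a kappa-B match in 2 (5.26%), against 5.71%. A match here is a string of letters and not a shown binding site.

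Tnfrsf12a (chromosome 17, 23675445 to 23677468, minus strand, GRCm38) was listed in all 8 libraries. It was at 2.95, 1.12, 1.32 and 1.86 TPM in KO 1 to KO 4, and at 4.78, 5.48, 3.67 and 0.82 TPM in WT 1 to WT 3 and the library labelled WT 4. WT 1, WT 2 and WT 3 lay above all KO libraries, and the library labelled WT 4 lay below all of them, against its label. The means were 1.81 ± 0.82 TPM in KO and 3.69 ± 2.05 TPM in WT (SD, n = 4 each). On the log2(TPM + 1) scale used for every difference here, KO minus WT was −0.63 (SE 0.43), and limma gave an adjusted p of 0.452. Over the 70 ways to assign the mice, an exact permutation test (two-sided) gave p = 0.229, where 0.0286 is the smallest possible. Leaving out the library labelled WT 4 gave a difference of −1.03, with p = 0.0571 in the exact permutation test, and leaving out both WT 1 and WT 2 gave −0.09. Reads from any part of the gene left in the KO allele would remain in these values.

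The labels were also read against tissue markers. Of 8 thalamic markers 7 were used, and their summed level was between 1165.6 and 2177.6 TPM in KO. In WT 1 to WT 3 and the library labelled WT 4 it was 1376.2, 1274.2, 393.1 and 1791.1 TPM. WT 3 thus had the lowest sum, and was lowest for Tcf7l2, Gbx2 and Rora but not for Slc17a6, Lhx2, Lhx9 or Calb2. WT 1 and WT 2 lay above the other 6 libraries for Slc17a6 and for Rora (628.3 and 528.7, against 13.9 to 101.5 TPM). They lay below them for Lhx2 and Calb2, so the sum joins opposite moves. The myelin gene Mbp reached 11153.3 TPM in WT 1 and 13566.5 TPM in WT 2 but stayed at 34.4 to 51.3 TPM in the remaining 6 libraries, so the limit of 1000 TPM used to divide them falls in a wide gap. The 7 used of 11 mature oligodendrocyte markers summed to 27433.9 and 34532.2 TPM in WT 1 and WT 2, and to 59.5 to 92.9 TPM in the other 6, where Opalin was listed at 0. The 7 markers of young neurons summed to 1403.6 and 1387.6 TPM in WT 1 and WT 2, and to 8781.1 to 12067.6 TPM in the other 6. Astrocyte markers (6 of 8 used) summed to 2712.5 and 2556.1 TPM in WT 1 and WT 2 and to 434.8 to 793.6 TPM in the other 6. Of these 4 lay above the other 6 libraries in both. Aldh1l1 (64.8 and 70.6 TPM) and Slc1a3 (190.7 and 203.2 TPM) lay within the range of the other 6. The 10 microglia markers summed to 329.6 and 369.9 TPM in WT 1 and WT 2 and to 146.3 to 187.0 TPM in the other 6. Of these 7 lay above the other 6 libraries in both, but Aif1, Trem2 and Fcrls did not. Mature neuron markers (6 of 7 used) summed to 4131.2 TPM in WT 1 and 3703.2 TPM in WT 2, and to 700.5 to 1475.4 TPM in the other 6. Of these 4 lay above the other 6 libraries in both, but Rbfox3 (48.9 and 40.8 TPM) and Nefl (540.4 and 508.9 TPM) did not. The 7 oligodendrocyte precursor markers summed to 775.9 TPM in WT 1 and 942.2 TPM in WT 2, and to 207.1 to 339.1 TPM in the other 6. Of these 5 lay above the other 6 libraries in both. Pdgfra (43.6 and 50.6 TPM) and Cspg4 (23.2 and 25.1 TPM) lay within the range of the other 6. The 7 choroid plexus markers summed to 26.2 TPM in WT 1 and 21.6 TPM in WT 2, and to 41.7 to 473.4 TPM in the other 6. Of these 5 lay below the other 6 libraries in both, but Kl and Otx2 did not. Apart from the thalamic sum, these sums move with the differences between WT 1 and WT 2 and the other libraries given below. Every used marker of mature oligodendrocytes and young neurons does so, but some markers of the other lists do not. The part of these markers in those differences was not tested. The age label of 27 days is shared by all 8 libraries, so it does not separate this pair from the others. Mature oligodendrocyte markers were low and young neuron markers high in the other 6, which include every KO library. Whether those 6 differed from WT 1 and WT 2 in true age or stage was not tested. In tissue RNA, fewer cells of a type and less RNA per cell cannot be told apart.

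In KO against WT, none of the 33 tested members passed. Limma, fitted over 15967 genes with Benjamini-Hochberg adjustment at 0.05, called 0 members and 0% of all genes, and members' adjusted p ran from 0.429 to 0.97. At an unadjusted p under 0.05 there were 2 members, Tnfsf9 and Tnfsf13, against 7.66% of all genes. Both were higher in KO, against 5.33% of genes higher and 2.33% lower. Of the 33, 22 lay above 0 and 11 below (66.7% above, against 60.1% of all genes), with a median of 0.13 on the log2 scale against 0.10 for all genes. After quantile normalization the median of all genes was 0.002 and that of the members −0.10. KO and WT values did not overlap for 1 member, Tnfsf9, against 3.34% of all genes (2.42% higher in KO, 0.921% lower). Without both WT 1 and WT 2, 31 members were tested and 0 passed, against 0.00625% of all genes, and 1 member, Traf5, had an unadjusted p under 0.05, against 2.16%. The members' median was then −0.08 and that of all genes 0.00. With array weights, which let limma count some libraries less, 15 members passed, 9 higher and 6 lower, against 65% of all genes. WT 3 and the library labelled WT 4 were given the smallest weights, so the WT side rested mostly on WT 1 and WT 2.

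**Figure D2:**
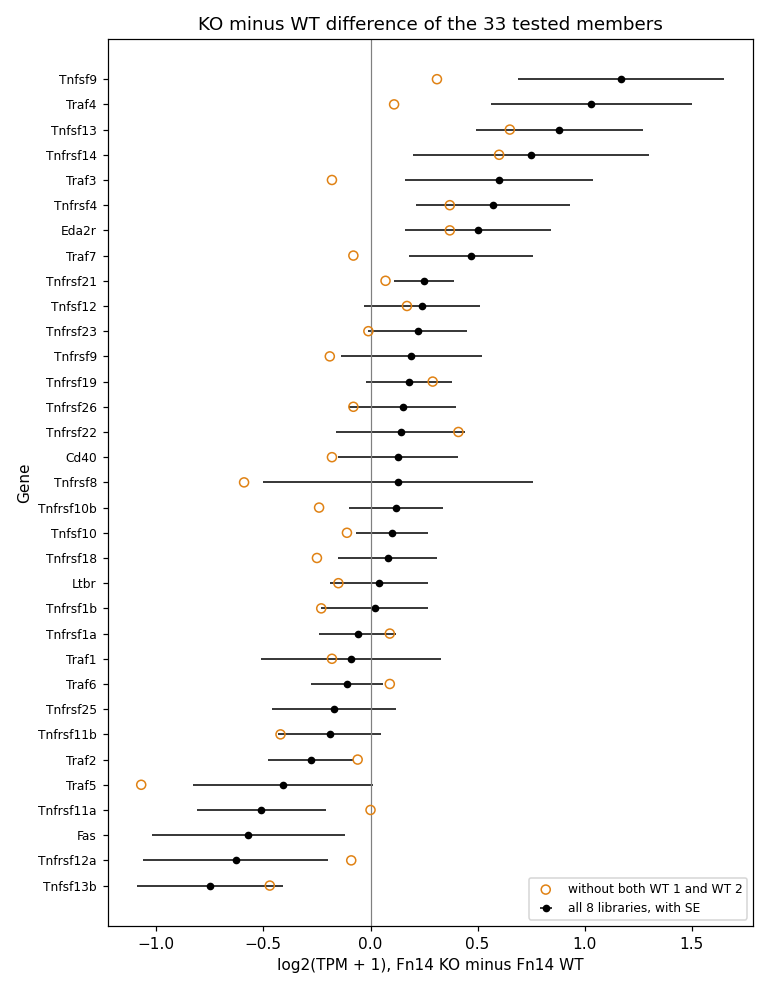
KO minus WT difference on the log2(TPM + 1) scale for the 33 tested genes, from all 8 libraries (filled points with SE) and without both WT 1 and WT 2 (open circles). Tnfsf9 and Traf4 stand highest at 1.17 and 1.03 with all libraries and at 0.31 and 0.11 without the pair. Fas and Tnfrsf25 fell under the 1 TPM limit without the pair and have no open circle.

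Among ligands, Tnfsf9, the 4-1BB ligand that costimulates T cells, had the largest KO minus WT difference. It was at 5.20, 3.76, 3.98 and 3.76 TPM in KO 1 to KO 4, and at 0.57, 0, 2.97 and 3.32 TPM in WT 1 to WT 3 and the library labelled WT 4. Every KO library lay above every WT library, and WT 1 and WT 2 lay farthest down. The means were 4.18 ± 0.691 TPM in KO and 1.71 ± 1.67 TPM in WT (SD, n = 4 each). On the log2 scale the difference was 1.17 (SE 0.48, limma adjusted p = 0.429), which dropped to 0.31 when both WT 1 and WT 2 were left out. Its receptor gene Tnfrsf9 was at 0.70 to 2.00 TPM in KO and 0.28 to 1.70 TPM in WT. By the annotation Tnfsf9 overlaps the gene Gm11110, and Tnfrsf9 overlaps Camta1, a gene of the other strand. Reads may be divided wrongly within each of these pairs.

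Tnfsf12, the gene for TWEAK, was at 3.55, 3.09, 4.00 and 4.63 TPM in KO 1 to KO 4, and at 3.75, 2.15, 4.68 and 2.18 TPM in WT 1 to WT 3 and the library labelled WT 4. The WT range enclosed all 4 KO values. The log2 difference was 0.24 (SE 0.27, limma adjusted p = 0.616), and 0.17 without both WT 1 and WT 2. It was 0.40 without WT 3, 0.12 without WT 2 or without the library labelled WT 4, and 0.03 after quantile normalization. Tnfsf13, the neighbouring gene for APRIL, a survival factor of B cells and plasma cells, was at 4.33, 2.02, 1.40 and 1.54 TPM in KO 1 to KO 4, and at 0, 1.11, 1.44 and 0.65 TPM in WT 1 to WT 3 and the library labelled WT 4. KO 1 was well above the rest, and WT 3 lay above KO 3, so the groups overlapped. The log2 difference was 0.88 (SE 0.39, limma adjusted p = 0.429), and 0.65 without both WT 1 and WT 2. By the annotation both genes overlap the read-through gene Tnfsfm13 and the antisense gene Tnfsf13os, and the sources used here do not say how reads were divided among them.

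Tnfsf13b, the gene for the B cell factor BAFF, had the lowest KO minus WT difference of the 33 members. It was at 0.91, 1.09, 0.57 and 0.72 TPM in KO 1 to KO 4, and at 3.47, 2.03, 2.74 and 0.68 TPM in WT 1 to WT 3 and the library labelled WT 4. As for Tnfrsf12a, WT 1, WT 2 and WT 3 lay above all KO libraries, but the library labelled WT 4 lay among the KO values here and not below them. The log2 difference was −0.75 (SE 0.34, limma adjusted p = 0.429), and −0.47 without both WT 1 and WT 2. The receptors that bind BAFF and APRIL on lymphocytes were low, with Tnfrsf13b at 1.00 TPM or less, Tnfrsf13c at 0.90 TPM or less and Tnfrsf17 at 1.23 TPM or less in every library. The 7 lymphocyte markers summed to 4.11 to 5.97 TPM in KO and 3.37 to 7.11 TPM in WT, with Cd3g listed at 0 in all 8 libraries.

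Tnfsf10, the gene for TRAIL, was the most abundant ligand. It was at 20.6, 16.5, 19.3 and 16.01 TPM in KO 1 to KO 4, and at 14.1, 14.6, 19.8 and 19.4 TPM in WT 1 to WT 3 and the library labelled WT 4. WT 1 and WT 2 lay below the other 6, which spanned 16.01 to 20.6 TPM, and the log2 difference was 0.10 (SE 0.17, limma adjusted p = 0.755), which turned to −0.01 after quantile normalization and to −0.11 without both WT 1 and WT 2. The other 10 ligand genes had means from 0.0138 to 0.799 TPM. Tnf, the founding ligand of the family, was listed at 0 in KO 1, KO 2 and KO 3 and at 0.11 TPM in KO 4, and at 0, 0.18, 0.53 and 0 TPM in WT 1 to WT 3 and the library labelled WT 4. Lta, a lymphotoxin subunit, was at 0.22 to 0.91 TPM in KO, and at 0, 0, 1.86 and 0.42 TPM in WT 1 to WT 3 and the library labelled WT 4. Ltb, its partner subunit, was at 0.43 to 1.42 TPM in KO, and at 0, 0, 0.40 and 1.78 TPM in WT 1 to WT 3 and the library labelled WT 4. For both genes the WT libraries included the lowest and the highest of all 8. Tnfsf8, the CD30 ligand, had values of 0 throughout KO, and of 0.31, 0.32, 0.09 and 0 TPM in WT 1 to WT 3 and the library labelled WT 4. Tnfsf4, the OX40 ligand, and Tnfsf14, also called LIGHT, were each listed above 0 in 1 library, at 0.33 TPM in KO 4 and 0.11 TPM in WT 3. Over all 13 untested members the highest single value was 1.86 TPM, for Lta in WT 3, and 10 of the 13 were listed at 0 in at least 1 library.

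**Figure D3:**
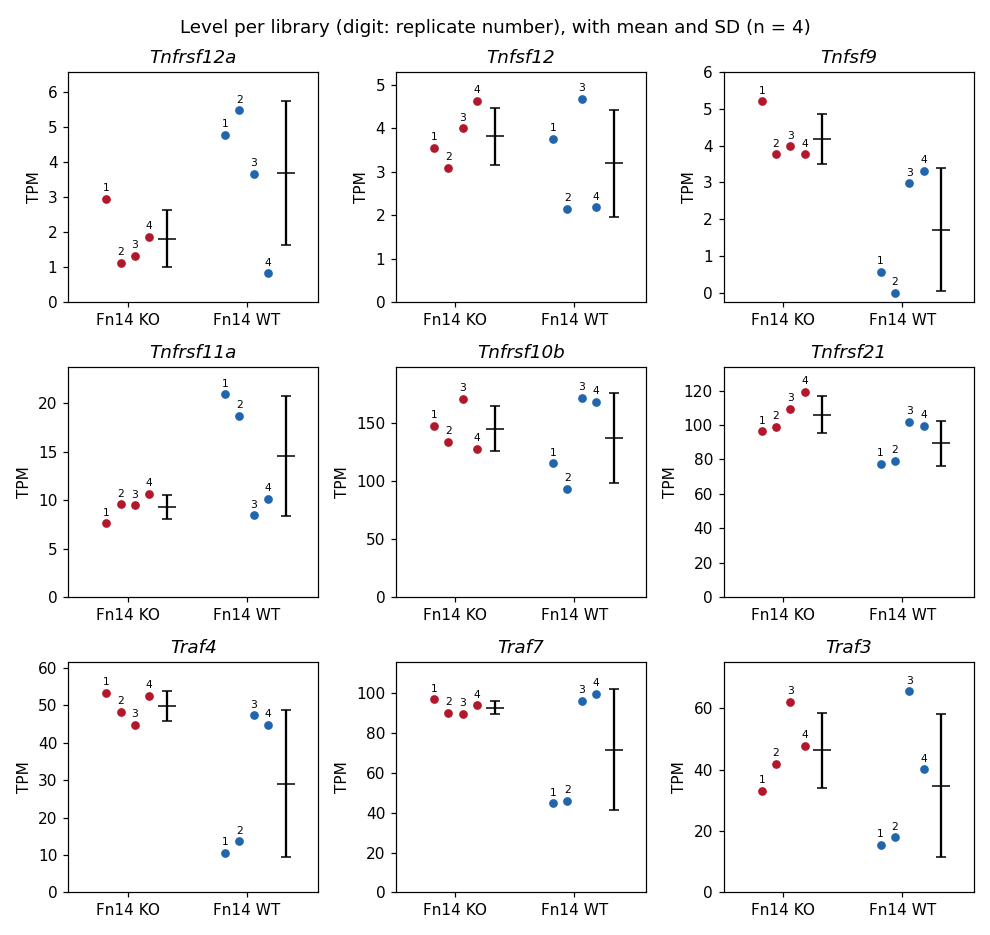
TPM in each library (points, digit = replicate number; red Fn14 KO, blue Fn14 WT) with mean and SD of the 4 libraries (black), for 9 members. Traf4, Traf7 and Traf3 in WT 1 and WT 2 sit below all other points, Tnfrsf11a in WT 1 and WT 2 sits above them, and Tnfrsf12a in the library labelled WT 4 sits at 0.82 TPM, below all KO points.

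Among TRAF-binding receptors, Tnfrsf19, a receptor of the nervous system and of epithelial progenitors, was the most abundant. It was at 67.8, 48.3, 36.2 and 56.5 TPM in KO 1 to KO 4, and at 52.3, 44.5, 40.9 and 41.9 TPM in WT 1 to WT 3 and the library labelled WT 4. The groups overlapped, with KO 1 highest and KO 3 lowest. Tnfrsf11a, which encodes RANK, the receptor of bone and immune cell differentiation, was at 7.62, 9.57, 9.49 and 10.7 TPM in KO 1 to KO 4, and at 20.9, 18.7, 8.45 and 10.2 TPM in WT 1 to WT 3 and the library labelled WT 4. Both WT 1 and WT 2 lay above the other 6 by a wide margin, and within the other 6 the WT libraries fell inside the KO range. The log2 difference was −0.51 (SE 0.30, limma adjusted p = 0.429), and 0.00 without both WT 1 and WT 2. Its ligand gene Tnfsf11, for RANKL, was at 0.55 TPM or less in every library, and Tnfrsf11b, for the soluble decoy osteoprotegerin, was at 1.23 to 1.75 TPM in KO and 1.21 to 2.39 TPM in WT.

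Ltbr, the lymphotoxin beta receptor gene, was at 9.46 to 13.4 TPM in KO and 8.95 to 16.8 TPM in WT, and Tnfrsf18, also known as GITR, at 10.9 to 15.7 TPM in KO and 9.16 to 17.4 TPM in WT. Both groups enclosed each other's means, and the log2 differences of 0.04 (SE 0.23) for Ltbr and 0.08 (SE 0.23) for Tnfrsf18 turned to −0.15 and −0.25 when WT 1 and WT 2 were left out. Tnfrsf1b, for TNF receptor 2, was at 2.42 to 2.97 TPM in KO and 1.66 to 4.29 TPM in WT, and Cd40, a costimulatory receptor of antigen-presenting cells, at 1.67 to 2.66 TPM in KO and 1.24 to 3.54 TPM in WT. The CD40 ligand gene Cd40lg was listed at 0 in all 8 libraries. Tnfrsf4, for OX40, was at 1.62 to 2.91 TPM in KO and 0.30 to 2.62 TPM in WT, and Eda2r, the receptor of the ectodysplasin isoform A2, at 0.96 to 2.22 TPM in KO and 0.16 to 1.46 TPM in WT, with log2 differences of 0.57 (SE 0.36) and 0.50 (SE 0.34). Neither passed in limma (adjusted p = 0.435 and 0.448).

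Some receptor genes of low level were high in a single library. Tnfrsf14, for HVEM, which binds LIGHT and lymphotoxin, was at 7.10, 1.62, 1.75 and 0.81 TPM in KO 1 to KO 4, and at 2.00, 0, 0.49 and 1.99 TPM in WT 1 to WT 3 and the library labelled WT 4. KO 1 stood alone, and among tested members it was also the highest library for Tnfsf13, Tnfsf9, Tnfsf10, Tnfrsf19, Eda2r and Traf4. In KO 1 the 7 choroid plexus markers summed to 473.4 TPM, compared with 54.8 to 158.1 TPM in KO 2 to KO 4 and 21.6 to 127.9 TPM in WT, and the 3 used of 5 erythroid markers to 3393.5 TPM, compared with 666.4 to 1113.8 TPM in KO 2 to KO 4 and 685.2 to 999.5 TPM in WT. Their part in these values was not tested. Tnfrsf8, for CD30, was at 0.59, 1.19, 3.20 and 0.78 TPM in KO 1 to KO 4, and at 0, 0.55, 6.23 and 0.61 TPM in WT 1 to WT 3 and the library labelled WT 4. WT 3, which had the lowest thalamic marker sum, was among tested members the highest library for Tnfrsf8, Ltbr, Tnfrsf1b, Traf1 and Traf3. It was also highest, by smaller margins for some, for Tnfsf12, Tnfrsf10b, Tnfrsf23 and Tnfrsf11b.

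The death-domain receptors held the highest levels of any receptor class, and their sum was 255.3, 244.8, 289.9 and 259.6 TPM in KO 1 to KO 4, and 208.9, 188.0, 286.0 and 276.4 TPM in WT 1 to WT 3 and the library labelled WT 4. Tnfrsf10b was at 147.4, 133.8, 170.7 and 127.6 TPM in KO 1 to KO 4, and at 115.1, 93.5, 171.6 and 167.8 TPM in WT 1 to WT 3 and the library labelled WT 4. WT 1 and WT 2 were the lowest libraries on the deposited scale, as after quantile normalization but not with TMM factors. The KO minus WT log2 difference was 0.12 (SE 0.22, limma adjusted p = 0.769), and −0.24 without both WT 1 and WT 2. Tnfrsf22 and Tnfrsf23, mouse decoy receptors for TRAIL that lack a death domain, were at 4.13 to 5.58 TPM and 4.48 to 5.63 TPM in KO and at 1.89 to 5.71 TPM and 2.75 to 5.78 TPM in WT. Tnfrsf26, a related receptor, was at 1.61 to 2.47 TPM in KO and 1.01 to 2.26 TPM in WT. These 3 similar genes lie side by side on chromosome 7 and overlap the antisense gene E230032D23Rik, so the division of reads among them is uncertain.

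Tnfrsf21, which encodes DR6, a receptor tied to axon degeneration and to the control of myelination, was at 96.4, 99.2, 109.5 and 119.4 TPM in KO 1 to KO 4, and at 77.5, 79.2, 102.0 and 99.5 TPM in WT 1 to WT 3 and the library labelled WT 4. WT 1 and WT 2 lay below the other 6, a placing that held after quantile normalization and with TMM factors. The log2 difference was 0.25 (SE 0.14, limma adjusted p = 0.429), and 0.07 without both WT 1 and WT 2. Tnfrsf1a, for TNF receptor 1, was at 8.16 to 10.4 TPM in KO and 8.24 to 12.2 TPM in WT, a log2 difference of −0.06 (SE 0.18, limma adjusted p = 0.859) that turned to 0.09 when WT 1 and WT 2 were left out. Fas, the death receptor for Fas ligand, was at 0.21, 1.36, 0.65 and 0.95 TPM in KO 1 to KO 4, and at 3.35, 2.41, 1.63 and 0.13 TPM in WT 1 to WT 3 and the library labelled WT 4. This was the order seen for Tnfrsf12a, with WT 1, WT 2 and WT 3 above all KO libraries and the library labelled WT 4 below them. Its log2 difference was −0.57 (SE 0.45, limma adjusted p = 0.493), and it was −0.96 without the library labelled WT 4 and −0.31 without WT 1. Tnfrsf25, or DR3, a receptor of lymphocytes, was at 0.81 to 1.32 TPM in KO and 0.84 to 2.60 TPM in WT.

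The summed level of the 7 TRAF genes was 213.2, 205.6, 222.1 and 221.2 TPM in KO 1 to KO 4, and 103.8, 113.4, 241.8 and 210.1 TPM in WT 1 to WT 3 and the library labelled WT 4. The sum in WT 1 and WT 2 lay far below every other library, where it stayed between 205.6 and 241.8 TPM. The members did not share a direction, since Traf3, Traf4 and Traf7 were lower in WT 1 and WT 2 and Traf2 and Traf6 were higher, on the deposited scale, after quantile normalization and with TMM factors.

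**Figure D4:**
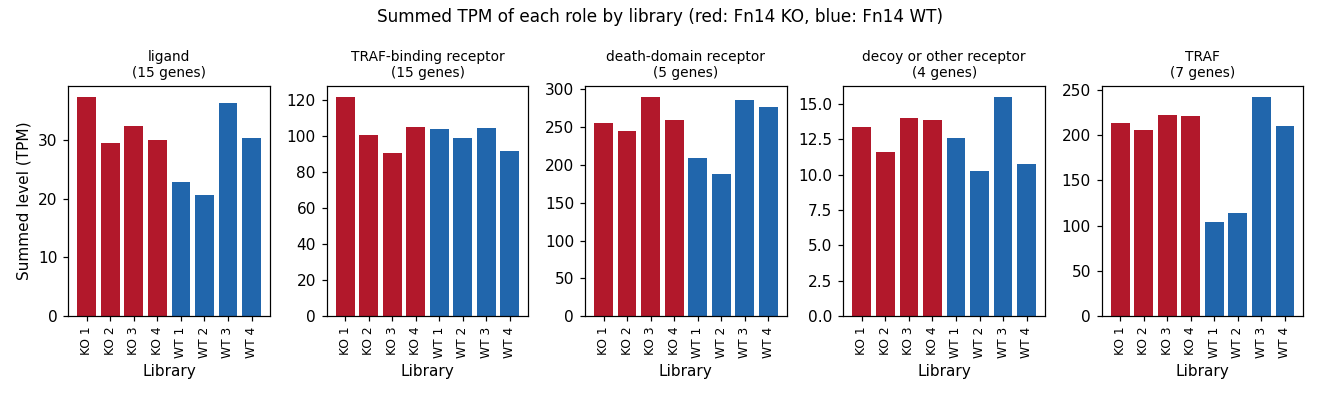
Summed TPM of the genes of each role (bars, 1 per library; red Fn14 KO, blue Fn14 WT; each panel has its own axis from 0). The TRAF sum is 103.8 TPM in WT 1 and 113.4 TPM in WT 2, and spans 205.6 to 241.8 TPM in the other 6 libraries.

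Traf4, an adaptor known from the developing nervous system, was at 53.4, 48.3, 44.8 and 52.6 TPM in KO 1 to KO 4, and at 10.6, 13.7, 47.3 and 44.8 TPM in WT 1 to WT 3 and the library labelled WT 4. Its lowest value outside WT 1 and WT 2 was 44.8 TPM, far above both. The means were 49.7 ± 4.02 TPM in KO and 29.1 ± 19.6 TPM in WT (SD, n = 4 each). On the log2 scale they differed by 1.03 (SE 0.47, limma adjusted p = 0.429), or by 0.11 when both WT 1 and WT 2 were left out. Traf7, a ubiquitin ligase that carries WD40 repeats in place of the TRAF domain, was at 97.0, 90.3, 89.8 and 94.0 TPM in KO 1 to KO 4, and at 44.8, 46.1, 96.4 and 99.8 TPM in WT 1 to WT 3 and the library labelled WT 4. Outside WT 1 and WT 2 it held between 89.8 and 99.8 TPM, and its log2 difference of 0.47 (SE 0.29, limma adjusted p = 0.431) turned to −0.08 without them. Traf7 lies 0.831 Mb from Tnfrsf12a on chromosome 17 and overlaps Caskin1 and Rab26, so its read assignment is uncertain. Traf3, an inhibitor of the noncanonical NF-kB pathway that keeps the kinase NIK low, was at 33.2, 42.0, 62.2 and 47.8 TPM in KO 1 to KO 4, and at 15.6, 18.02, 65.6 and 40.2 TPM in WT 1 to WT 3 and the library labelled WT 4. Traf3 spread more within KO (SD 12.2 TPM) than Traf4 (4.02 TPM) or Traf7 (3.37 TPM), and its log2 difference of 0.60 (SE 0.44, limma adjusted p = 0.471) turned to −0.18 without both WT 1 and WT 2.

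Traf2, which binds most TRAF-binding receptors and the adaptor of TNF receptor 1, was at 8.89, 6.91, 8.10 and 6.72 TPM in KO 1 to KO 4, and at 10.6, 11.8, 8.13 and 7.83 TPM in WT 1 to WT 3 and the library labelled WT 4. WT 1 and WT 2 were the highest libraries, and the log2 difference was −0.28 (SE 0.20, limma adjusted p = 0.457), and −0.06 without them. Traf6, which also serves interleukin-1 and Toll-like receptors, was at 18.1, 15.9, 14.8 and 18.2 TPM in KO 1 to KO 4, and at 20.3, 21.9, 17.3 and 14.0 TPM in WT 1 to WT 3 and the library labelled WT 4. The highest libraries were again WT 1 and WT 2, and the log2 difference was −0.11 (SE 0.17, limma adjusted p = 0.718), turning to 0.09 without them. Traf1 and Traf5 were low. Traf1, which lacks the RING domain of the other TRAFs, was at 0.95 to 1.97 TPM in KO and 0.33 to 4.36 TPM in WT. Traf5 was at 0.71, 1.30, 1.41 and 0.33 TPM in KO 1 to KO 4, and at 0.64, 0.53, 2.75 and 3.20 TPM in WT 1 to WT 3 and the library labelled WT 4. WT 3 and the library labelled WT 4 were its highest libraries, so its log2 difference moved to −1.07 without both WT 1 and WT 2 from −0.41 (SE 0.42, limma adjusted p = 0.582) with all libraries. Traf5 overlaps the antisense gene Gm26879 and the pseudogene Gstp-ps, and without both WT 1 and WT 2 it did not pass either (limma adjusted p = 0.999).

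Over the 33 tested members, the values in WT 1 and WT 2 both lay above the range of the other 6 libraries for 5 members (Fas, Tnfrsf11a, Tnfrsf12a, Traf2 and Traf6), 15.2%, against 22.5% of all genes. Both lay below it for 10 members, 30.3%, against 40.5% of all genes. These 10 were Traf3, Traf4, Traf7, Tnfsf9, Tnfsf10, Tnfrsf8, Tnfrsf10b, Tnfrsf21, Tnfrsf23 and Cd40. With quantile normalization the counts were 9 above and 6 below, against 29.3% and 29.4% of all genes, and with TMM factors 7 above and 5 below, against 30.5% and 30.0%. Fas, Tnfrsf11a, Tnfrsf12a, Traf2 and Traf6 stayed above and Traf3, Traf4, Traf7, Tnfsf9 and Tnfrsf21 stayed below under all 3 scalings, while Tnfsf10, Tnfrsf8, Tnfrsf23 and Cd40 lost their place under both others and Tnfrsf10b with TMM factors. This division was made from the measured level of Mbp and is a description without a test.

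The pathway around the members was read from 3 further lists, in which no gene passed in limma in either direction (smallest adjusted p 0.429 in each list). Over all tested genes 60.1% lay above 0, with a median log2 difference of 0.10. Of 7 family genes that carry other symbols 4 were tested, all above 0, with a median log2 difference of 0.77, and 0.19 without both WT 1 and WT 2. WT 1 and WT 2 both lay below the other 6 libraries for 3 of the 4 (Ngfr, Eda and Cd70), against 40.5% of all genes. Ngfr, the p75 neurotrophin receptor, was at 8.12, 10.1, 9.22 and 11.6 TPM in KO 1 to KO 4, and at 0.53, 0.48, 8.52 and 6.72 TPM in WT 1 to WT 3 and the library labelled WT 4. Eda, the ligand ectodysplasin, was at 7.80 to 8.82 TPM in KO and at 1.39, 1.72, 8.24 and 7.43 TPM in WT 1 to WT 3 and the library labelled WT 4. Both were low in WT 1 and WT 2 alone, as were Traf4 and Traf7. Cd70, the CD27 ligand, was highest in KO 1 at 3.78 TPM, compared with 0.14 to 1.18 TPM in KO 2 to KO 4 and 0 to 1.41 TPM in WT.

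Of 33 genes for proximal signalling, ubiquitin control and ligand shedding, 31 were listed and 29 tested, with 16 above and 13 below 0, a median log2 difference of 0.01, and 0.00 when both WT 1 and WT 2 were left out. The values in WT 1 and WT 2 lay above the other 6 libraries for 9 of the 29, against 22.5% of all genes, and below them for 9, against 40.5%. Tab3, a subunit that links TRAFs to the kinase TAK1, was at 32.4 to 42.5 TPM in KO and at 14.9, 13.6, 26.2 and 37.1 TPM in WT 1 to WT 3 and the library labelled WT 4. Traip, a ubiquitin ligase first known as a TRAF-interacting protein, was at 10.4 to 15.7 TPM in KO and at 2.86, 2.74, 10.7 and 12.6 TPM in WT 1 to WT 3 and the library labelled WT 4. Tbk1, a kinase related to the IkB kinases, went the other way, at 27.1 to 33.9 TPM in KO and at 93.6, 82.7, 34.0 and 32.4 TPM in WT 1 to WT 3 and the library labelled WT 4. Both WT 1 and WT 2 were the outermost libraries for all 3 genes.

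Of 18 NF-kB subunit and target genes 13 were tested, with 7 above and 6 below 0, a median log2 difference of 0.05 and −0.04 without both WT 1 and WT 2. Nfkbia, the NF-kB inhibitor that is itself a target, was at 22.1, 23.2, 23.0 and 23.7 TPM in KO 1 to KO 4, and at 37.3, 44.0, 30.0 and 21.2 TPM in WT 1 to WT 3 and the library labelled WT 4. The KO libraries lay close together, with WT 1, WT 2 and WT 3 above them and the library labelled WT 4 below. Csf1, the growth factor of microglia, had the same order, at 7.16 to 10.5 TPM in KO and at 16.01, 23.7, 16.8 and 6.85 TPM in WT 1 to WT 3 and the library labelled WT 4. Mmp9, a secreted protease, was at 3.21 to 13.6 TPM in KO and at 0.44, 0.59, 4.95 and 6.28 TPM in WT 1 to WT 3 and the library labelled WT 4. It was lowest in WT 1 and WT 2.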

How the data were processed

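The authors deposited 1 matrix of gene TPM values for 8 libraries, as its sheet name says, with their mean per group, which equalled the mean of the 4 libraries and was not used. BWA, edgeR 3.14.0 and the builds GRCm38 and mm10 are named, per the submitters' processing notes. The sources used here do not give their settings, the annotation or strand handling. WT 1 and WT 2 had the lowest TPM totals (969537 and 968958, with 996566 to 997426 in the other 6 libraries); 16983 and 17411 genes were above 0 in WT 1 and WT 2, and 17813 to 18756 in the other 6. Gene positions came from GENCODE M21, promoters from RefSeq on GRCm38.p6. By these positions Tnfsf13b, Fas, Traf2 and Traf3, among other members, also overlap other genes, so their read assignment is uncertain too.

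Genes averaging 1 TPM or more in the 8 libraries were analysed as log2(TPM + 1), which understates changes of low genes, with limma 3.58.1 in R 4.3.3 (mean-variance trend, robust, two-sided, no covariate). This step was checked on simulated data with large changes in genes of higher level. That check does not cover low genes or small changes. p-values measure the spread between mice. Members, lists and the division by Mbp were chosen with earlier results of these data known. Named members were Tnfrsf12a, Tnfsf12, members reaching 1 TPM, and pathway genes of smallest p; low members and single high libraries were picked after their values were seen. Alternatives were other pseudocounts, filters, scalings (quantile normalization, and unweighted TMM factors, trimmed means of log ratios), variance models, array weights, a replicate block and leaving out libraries.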

Additional observations from a re-analysis of the deposited data

Results flagged for a closer look

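In 3 of 66 groups of 4 libraries (33 tested members, each in KO and WT) a single library stood apart by Dixon's test at 95% on the log2(TPM + 1) scale, where chance gives about 3.3. Tnfsf9 was at 5.20 TPM in KO 1, while KO 2 to KO 4 held 3.76 to 3.98 TPM. Ltbr was at 16.8 TPM in WT 3, while the remaining WT libraries held 8.95 to 9.91 TPM. Tnfrsf25, a death-domain receptor of lymphocytes, was at 2.60 TPM in WT 2, while the remaining WT libraries held 0.84 to 1.06 TPM.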

How the results depend on the processing

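No member passed under any alternative except array weights. These passed 15 of 33 members (9 higher, 6 lower) and 10376 genes, or 65.0% of all tested. Tnfrsf12a was then at −1.33 (limma adjusted p = 0.00115). The smallest weights were 0.13 for WT 3 and 0.138 for the library labelled WT 4, against 1.71 for WT 1 and 3.43 for WT 2. The WT side of that fit thus rested mostly on WT 1 and WT 2, the libraries set apart by Mbp. KO 2 had the largest weight, 5.98. Leaving out each library in turn gave 0 members and 0 to 1 genes passed, a member median of 0.01 to 0.22, and Tnfrsf12a at −1.03 to −0.42 in limma and in the exact permutation test. A gene outside the families passed in 3 settings: Snora62 without trend and robust estimation (1 gene), Mir199a-2 without both WT 1 and WT 2 (1 gene) and Mir666 without KO 3 (1 gene). The member median turned to −0.10 after quantile normalization. The counts of members with WT 1 and WT 2 outside the rest moved to 9 above and 6 below with quantile normalization and to 5 below with TMM factors.

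Each of 27 members and pathway genes was examined under the alternatives whose filter it passed. Members outside these 27 genes are not listed singly for the scalings. After quantile normalization the median of all 33 members was −0.10, so most lay below 0, against 11 of 33 on the deposited scale. Among the 27 genes, signs turned for Tnfsf10 (−0.01), Cd40 (−0.12) and Tnfrsf8 (−0.15) after quantile normalization, and for Tnfsf10 (−0.01) with TMM factors. Without both WT 1 and WT 2, of the 31 tested members they turned for Traf7 (−0.08), Tnfsf10 (−0.11), Cd40 (−0.18), Tnfrsf8 (−0.59), Tnfrsf10b (−0.24), Tnfrsf23 (−0.01), Traf3 (−0.18), Traf6 (0.09), Tnfrsf18 (−0.25), Ltbr (−0.15), Tnfrsf1b (−0.23), Tnfrsf9 (−0.19), Tnfrsf26 (−0.08) and Tnfrsf1a (0.09). Tnfrsf8 ran from −0.22 to 0.30 and Tnfrsf10b from −0.05 to 0.24 when single libraries were left out. The same leave-outs gave 0.67 to 1.35 for Traf4, 0.28 to 0.66 for Traf7, 0.30 to 0.97 for Traf3 and −0.72 to −0.31 for Tnfrsf11a. Members at an unadjusted p under 0.05 numbered 0 to 6 there. Without WT 3 they were 6 of 32, against 4253 of 15839 genes. Without the library labelled WT 4 they were 6 of 33, against 4311 of 15992 genes. Such members numbered 0 of 33 at a pseudocount of 0.1 TPM, against 1218 of 15967 genes, and 1 of 33 at 0.5 TPM, against 1221. With no filter on low values they were 4 of 46, against 1496 of 20551 genes. When the filter was raised to 5 TPM they were 0 of 13, against 1001 of 13029 genes. The cause was not tested. The labels do not say that replicate numbers pair the mice, and same-numbered libraries correlated at −0.0998 to 0.074 in their deviations; with a replicate block 0 members passed, the member median stayed at 0.13 and Tnfrsf12a at −0.63 (limma adjusted p = 0.486). Depth is unknown, which limits every gene of low level.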
